A study of Mus musculus with 10 samples.

Results

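The genes described are 39 integrin subunits and focal adhesion or costamere adaptors, taken by symbol and role with earlier results of these data known. They come from a table of 23337 genes that compares mouse cardiomyocytes with and without dnMKL1. All 39 were listed with a fold change, and all 39 were among the 14056 genes for which the authors gave an adjusted p-value. They comprise 10 integrin alpha subunits, 6 beta subunits and 23 cytoplasmic proteins. The cells came from wild-type mice injected on postnatal day 1 with adeno-associated virus of serotype AAV9 at 5e+08 viral genomes per gram, and were collected on postnatal day 14 by collagenase perfusion of the heart and fluorescence-activated sorting. The control group received AAV9-cTNT-GFP and the other group AAV9-cTNT-dnMKL1-GFP, with 5 biological replicates each. The cTNT (cardiac troponin T) promoter drives the vector in cardiomyocytes, so both groups carry the virus and GFP, and they differ by an overexpressed dominant-negative form of MKL1 (also called MRTF-A). Strain and sex are not given in the labels.

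Integrins are heterodimers of an alpha and a beta subunit that span the cell membrane and bind matrix proteins outside the cell. Inside, talins and kindlins bind the beta tail, and the complex of ILK, PINCH and parvin, together with vinculin, tensins and zyxin-family proteins, links the tail to actin. In cardiomyocytes these proteins sit at costameres, which couple the Z-discs to the laminin-rich matrix around the cell. MKL1 is a coactivator of serum response factor (SRF), which binds the CArG box, and vinculin is a textbook target of SRF.

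The CArG boxes found at the members are shown first because the vector's product acts through SRF. Of the 39 genes, 27 matched the RefSeq promoter table (build GRCm38), in which each promoter covers 250 bases before and 50 bases after a start site. A CArG box without mismatch was searched in these 300 bases; its consensus reads the same on both strands. It was found at 4 of the 27 matched genes (14.8%), while 1.81% of the 27025 genes in that table held it. Capitals mark the box, and each sequence reads 5′ to 3′ on the gene's strand.
Vcl: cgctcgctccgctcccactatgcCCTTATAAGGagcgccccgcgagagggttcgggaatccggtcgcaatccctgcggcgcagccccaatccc
Fermt2: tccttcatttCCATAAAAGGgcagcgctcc
Itgb6: cacctgacttCCTTATAAGGtgaatgagga
Trip6: CCAAAATTGG
The Vcl stretch is chr14:20929148-20929240 on the plus strand, and its box begins 227 bases before the start site. The Fermt2 stretch is chr14:45530250-45530279 on the minus strand, with the box 204 bases before the start. That of Itgb6 is chr2:60673724-60673753 on the minus strand, 50 bases before the start of the downstream of its 2 listed promoters. In Trip6 the box lies at chr5:137314231-137314240 on the minus strand and begins at the base numbered 2 of the transcript. A match is a run of letters and not evidence that SRF binds there. For these 4 genes the authors' deposited table lists -0.16 (Vcl), -0.40 (Fermt2), -1.09 (Itgb6) and -0.36 (Trip6) as log2 fold changes. Those of Fermt2, Itgb6 and Trip6 passed an adjusted p-value of 0.05, as did 34.1% of all genes tested, 17.4% being lower. After both groups were set to the same total count, Itgb6 alone of the 4 was called (-0.80), where 6.60% of all genes tested were lower. Fermt2 and Trip6 were then at -0.11 and -0.071, and Vcl turned to 0.13. Whether the boxes bear on these changes was not tested.

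The table gives 1 comparison per gene and no values per library, and positive values mean higher in dnMKL1. That direction was read from Mkl1, for which the authors' deposited table lists 9.80 (SE 0.15). Library size factors, recovered from genes with a single read, ran from 0.660 to 1.28 for GFP and from 0.809 to 1.58 for dnMKL1. Estimated totals ran from 8803029 to 17123578 counts in the GFP libraries and from 8835136 to 17228615 in the dnMKL1 libraries. Each is the library's size factor times the summed group mean of all genes, so the totals are not measured depths. The summed group means of all genes differed by -0.29 on the log2 scale between the groups under the authors' scaling. Setting both groups to the same total, called total-count scaling here, adds 0.29 to every log2 fold change. Results that change under it are named as they come.

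At an adjusted p-value under 0.05, 22 of the 39 members were called (56.4%), against 34.1% of all genes tested and 43.4% of those with a base mean of at least 100. The base mean is a gene's normalized count averaged over all libraries, and 33 members reached 100, of which 20 were called. In dnMKL1 libraries 12 members were higher (30.8%, against 16.6% of all genes) and 10 were lower (25.6%, against 17.4%). Under total-count scaling 25 members were called, 21 higher and 4 lower, where 47.0% of all genes were called, 40.4% higher and 6.60% lower. The median log2 fold change of the members was 0.18, beside 0.021 over all genes tested, and the members ran from -1.42 to 4.0. Changes in opposite directions thus stood side by side within the set. Added up over the 39 members, the group means came to 78865 normalized counts for GFP and 77734 for dnMKL1, which is -0.021 as a log2 ratio. They took 0.592% of all normalized counts in GFP and 0.712% in dnMKL1.

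**Figure D1:**
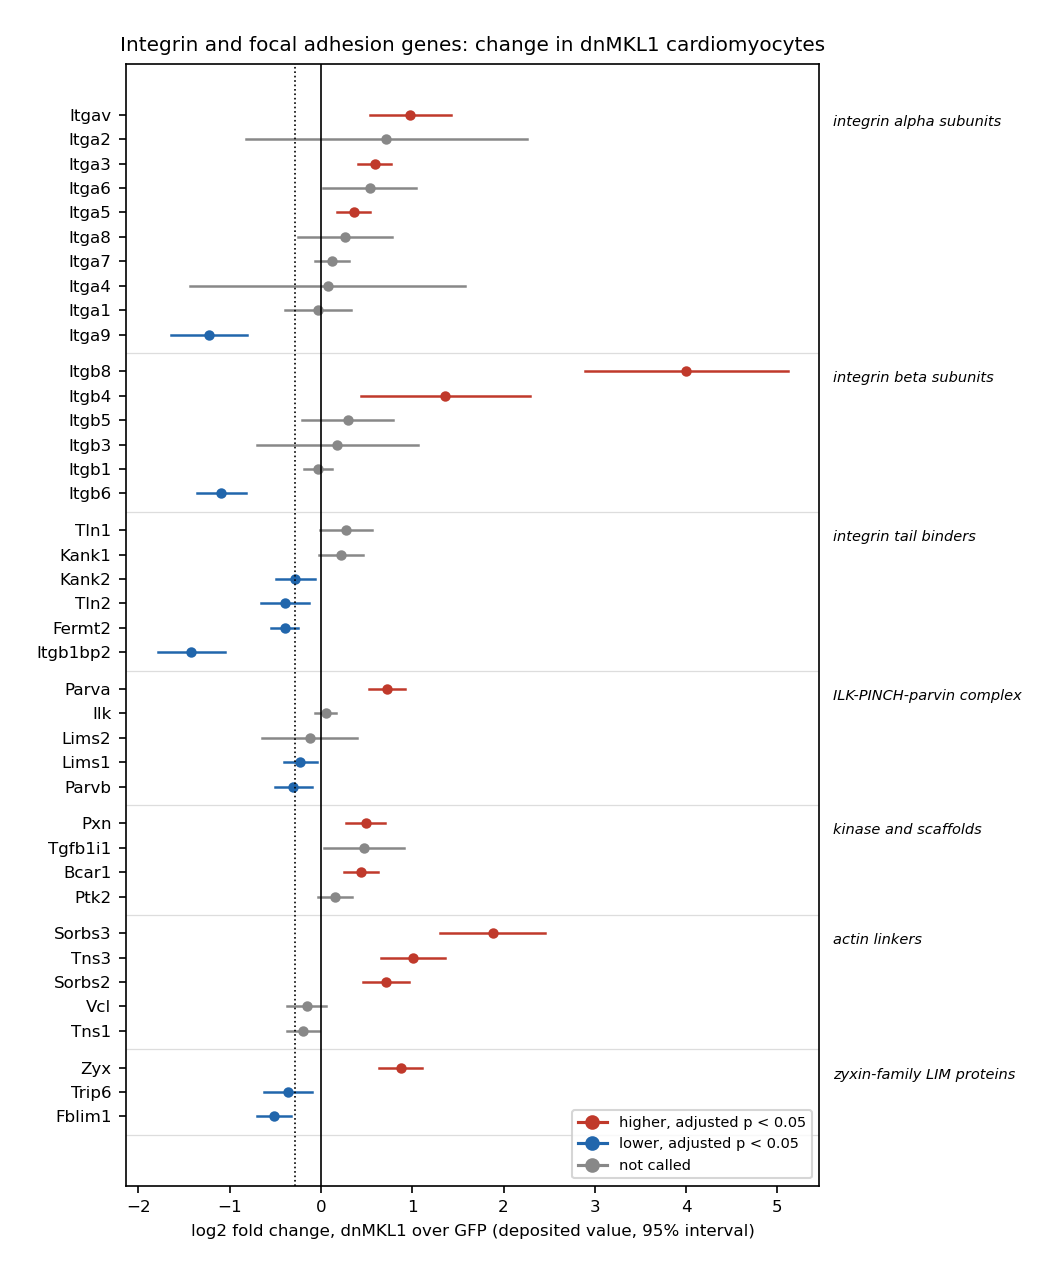
Log2 fold change of each of the 39 members, dnMKL1 over GFP, as deposited (points) with the 95% interval computed from the deposited standard error (lines), grouped by role; red is higher and blue lower at an adjusted p-value under 0.05. The dotted line at -0.29 marks where a gene would show no change under total-count scaling; 12 members are called higher and 10 lower, and Itgb8 lies farthest out at 4.0.

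Among the alpha subunits, Itga3, Itga5 and Itgav rose and Itga9 fell, while Itga7, the most abundant, was not called. Levels of different genes are compared per kb of exon, using group means implied by the base mean and fold change. In GFP libraries Itga7, the laminin-binding subunit of mature striated muscle, stood at 1688 normalized counts per kb and made up 62.1% of the alpha subunits' summed level per kb. Itga5, which with Itgb1 forms the main fibronectin receptor, followed with 17.4% and Itga9 with 13.1%. In dnMKL1 libraries these shares were 63.3% for Itga7, 20.9% for Itga5 and 5.23% for Itga9. The next subunits in the GFP group, Itga3, Itga6, Itgav and Itga1, lay between 33.5 and 63.5 normalized counts per kb. Itga8, Itga4 and Itga2 lay at 4.10 or less.

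**Figure D2:**
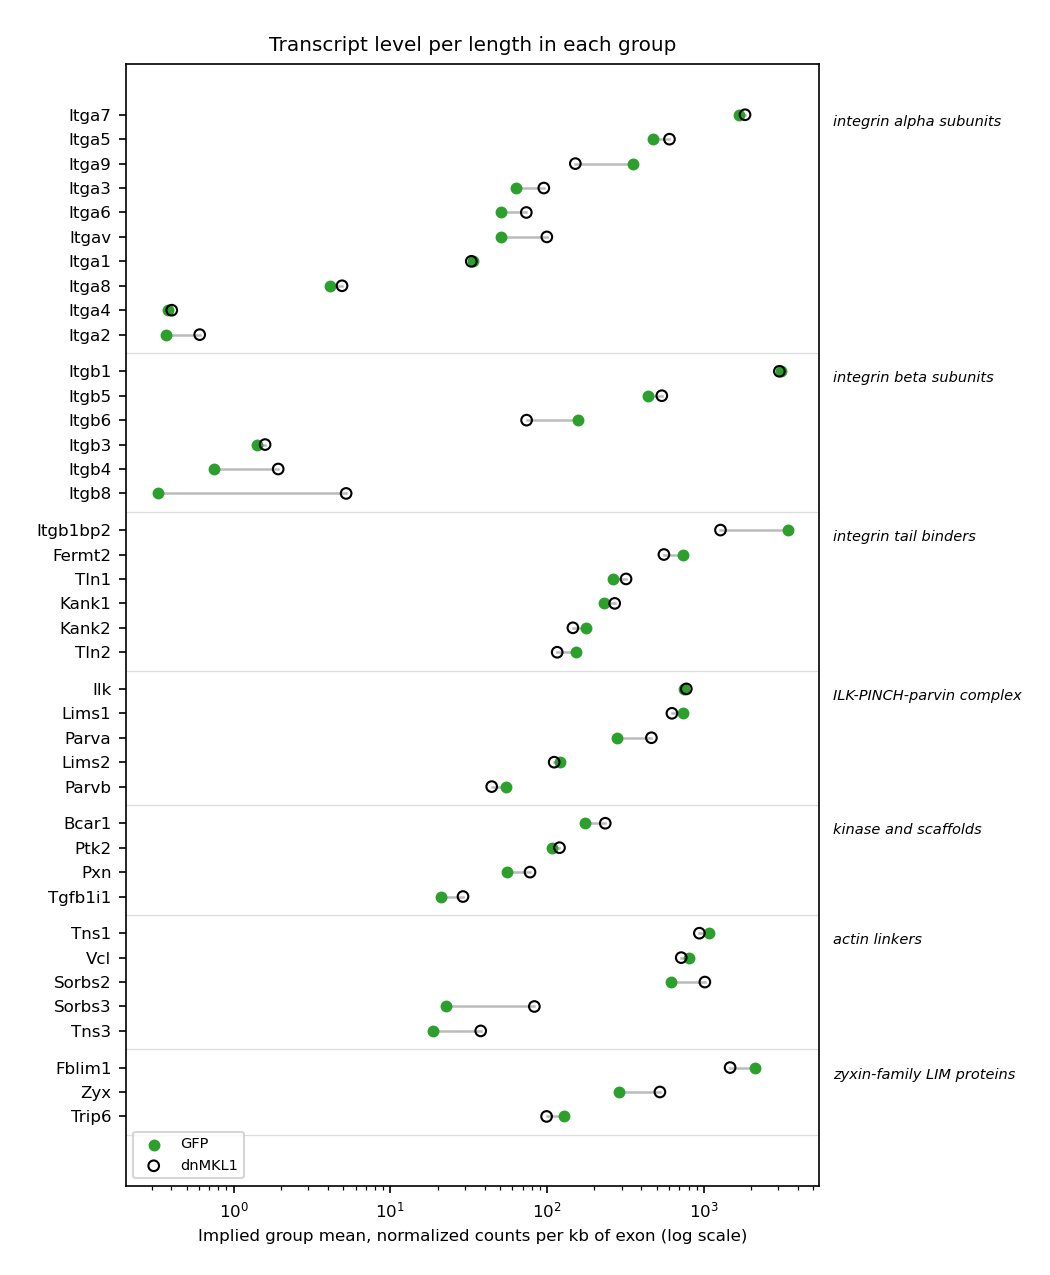
Implied group mean of each member in normalized counts per kb of exon (log axis), for GFP (green) and dnMKL1 (open circles), grouped by role and ordered by the GFP level. Itgb1bp2, Itgb1, Fblim1, Itga7 and Tns1 are the members above 1000 in the GFP group; Itgb8 is the lowest beta subunit in GFP and lies above Itgb3 and Itgb4 in dnMKL1.

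The fall of Itga9, a subunit that pairs with Itgb1 and binds tenascin-C and other ligands, took its implied mean from 2534 to 1083 normalized counts. The authors' deposited table gave it a log2 fold change of -1.23 (SE 0.21) and an adjusted p-value of 1.2e-07. Itgav, the partner of several beta subunits in receptors for vitronectin and latent TGF-beta, went from 357 to 703 normalized counts. Its deposited log2 fold change was 0.98 (SE 0.23, adjusted p = 1.2e-04) in the authors' deposited table. Itgav thus stood close to a doubling, with a 95% interval of the fold from 1.45 to 2.68.

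Itga3, a laminin receptor subunit, went from 334 to 501 normalized counts, with a log2 fold change of 0.59 (SE 0.09) and an adjusted p-value of 8.4e-09 in the authors' deposited table. Itga5 went from 2066 to 2649.6 normalized counts, a smaller step that also passed: the authors' deposited table gave 0.36 (SE 0.09, adjusted p = 5.6e-04). For Itga7 the implied means were 6996 and 7606 normalized counts, and its 95% interval on the log2 scale ran from -0.065 to 0.31. Itga6, which like Itga3 and Itga7 is a laminin-binding alpha subunit, had 0.53 (SE 0.26) with an adjusted p-value of 0.10 in the authors' deposited table. Under total-count scaling Itga7 and Itga6 would both be called higher, at 0.41 and 0.82. The collagen receptor subunit Itga1 had an interval from -0.39 to 0.33, and Itga8, which binds RGD ligands such as nephronectin, one from -0.26 to 0.78; neither was called, and the sign of Itga1 turned to 0.26 under total-count scaling.

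Among the beta subunits, Itgb8 and Itgb4 rose from low levels, Itgb6 fell, and Itgb1, by far the most abundant, was not called. Itgb1, the common partner of most alpha subunits, had implied means of 11851 and 11598 normalized counts. The authors' deposited table lists -0.03 (SE 0.08, adjusted p = 0.82) for it, with an interval from -0.18 to 0.12. Under total-count scaling it would turn to 0.26 and be called higher. Itgb1 made up 83.8% of the beta subunits' summed level per kb in GFP libraries and 83.0% in dnMKL1 libraries. Itgb5, which pairs with Itgav, made up 11.9% and 14.7%. It stood at 0.29 (SE 0.26) in the authors' deposited table, was not called, and would be called higher at 0.58 under total-count scaling.

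Itgb6, an epithelial subunit in other organs that pairs with Itgav and activates latent TGF-beta, went from 956 to 449 normalized counts. The authors' deposited table gave it -1.09 (SE 0.13) with an adjusted p-value of 3.8e-14, the smallest among the 39 members. Its share of the beta subunits' level per kb was 4.25% in GFP and 2.02% in dnMKL1. The gene spans chr2:60598292-60722643 on the minus strand in GENCODE's GRCm38 annotation. Itgb8, which also pairs with Itgav and activates latent TGF-beta, moved the other way, with 4.0 (SE 0.57) and an adjusted p-value of 5.5e-11 in the authors' deposited table. It remained a minor subunit, at 0.0088% of the beta level per kb in GFP libraries and 0.14% in dnMKL1 libraries.

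For 5 integrins of low level the reads in each library could be worked out from the deposited base mean. Only a single set of whole-number reads also gave the deposited fold change. The deposited SE was used to fit the model's dispersion for each set, so its match does not count as a check. The libraries are told apart by their size factor and group, not by replicate number. Itgb8 had 2, 4, 2, 2 and 3 reads in the GFP libraries, in order of rising size factor, and 42, 17, 22, 105 and 74 in the dnMKL1 libraries. After scaling these were 3.03, 6.04, 1.86, 1.64 and 2.34 normalized counts in GFP and 51.9, 19.3, 23.9, 76.2 and 46.9 in dnMKL1. Every dnMKL1 library lay above every GFP library. Group means of 2.98 ± 1.79 (SD, n = 5, GFP) and 43.6 ± 23.1 (SD, n = 5, dnMKL1) gave a 14.6-fold ratio (exact permutation test, two-sided, p = 0.00794, the smallest that 5 against 5 can give, and 0.0198 after Benjamini-Hochberg adjustment over 5 genes). Leaving out any 1 library kept the log2 ratio between 3.57 and 4.30. The permutation tests of the 5 integrins used the reads behind the deposited values, so they are not separate evidence.

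**Figure D3:**
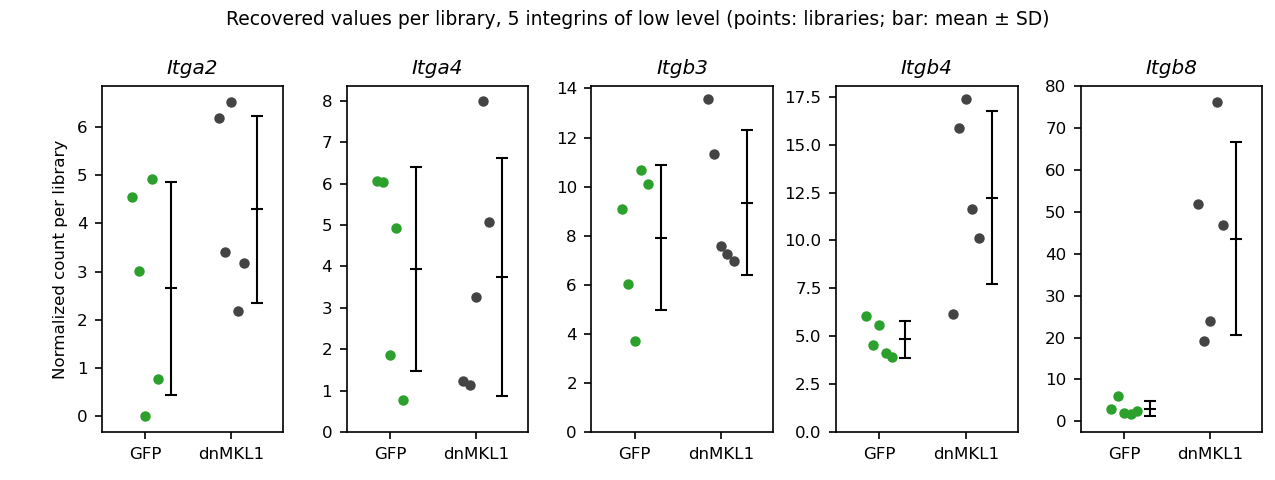
Normalized counts of 5 integrins in each library (points), with the mean ± SD of the 5 libraries of a group beside them; each panel has its own linear axis. The dnMKL1 libraries lie above all GFP libraries for Itgb8 (19.3 to 76.2 against 1.64 to 6.04) and Itgb4 (6.18 to 17.4 against 3.89 to 6.06), and overlap with them for Itga2, Itga4 and Itgb3.

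Itgb4, the laminin receptor subunit of hemidesmosomes that pairs with Itga6, had 6.06, 4.53, 5.57, 4.10 and 3.89 normalized counts in GFP and 6.18, 15.9, 17.4, 11.6 and 10.1 in dnMKL1. The groups did not overlap, though the lowest dnMKL1 library (6.18) was next to the highest GFP library (6.06). Its means were 4.83 ± 0.942 and 12.2 ± 4.50 (SD, n = 5 each; exact permutation test, two-sided, p = 0.00794, adjusted 0.0198). The authors' deposited table gave a log2 fold change of 1.36 (SE 0.47) with an adjusted p-value of 0.014.

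The remaining low integrins overlapped between the groups. Itgb3, best known from platelets and endothelium, had 9.09, 6.04, 3.71, 10.7 and 10.1 normalized counts in GFP and 13.6, 11.3, 7.60, 7.26 and 6.97 in dnMKL1 (exact permutation test, two-sided, p = 0.468). Itga2, a collagen receptor subunit, had 4.54, 3.02, 0, 4.93 and 0.778 in GFP and 6.18, 3.40, 6.51, 2.18 and 3.17 in dnMKL1 (exact permutation test, two-sided, p = 0.230). Itga4, a subunit of leukocyte integrins, had 6.06, 6.04, 1.86, 4.93 and 0.778 in GFP and 1.24, 1.13, 3.26, 7.99 and 5.07 in dnMKL1 (exact permutation test, two-sided, p = 0.913). The log2 ratio of its group means was -0.074, opposite in sign to its deposited log2 fold change of 0.074, which comes from a model fit. With 41 reads or fewer over all libraries for Itga2 and Itga4, only large differences could have been detected.

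Of the 6 proteins that bind integrin tails or talin, 4 fell and 0 rose by the deposited Wald test, with a median log2 fold change of -0.34; the same 4 had an unadjusted p-value under 0.05. Of all genes tested 17.4% were lower. Under total-count scaling the balance of these 6 was 2 higher (Tln1 and Kank1) and 1 lower (Itgb1bp2). Itgb1bp2, which encodes melusin, a striated muscle protein that binds the Itgb1 tail, fell the most of all 39 members. Its implied mean went from 4501 to 1681 normalized counts, and the authors' deposited table gave -1.42 (SE 0.19) with an adjusted p-value of 2.1e-12. Per kb of exon it stood at 3426 normalized counts in the GFP group, above Itgb1 at 3106, and at 1279 in the dnMKL1 group, below Itgb1 at 3040.1. The fall of Itgb1bp2 also passed under total-count scaling, at -1.13.

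The other 3 lower members of this group changed by smaller amounts and were not called under total-count scaling. Fermt2 (kindlin-2), which activates integrins together with talin, went from 2418 to 1835 normalized counts. The authors' deposited table gave it -0.40 (SE 0.08, adjusted p = 1.4e-06), which became -0.11 under that scaling. Tln2, the talin of striated muscle costameres, had -0.39 (SE 0.13, adjusted p = 0.013) in the authors' deposited table, and -0.10 under that scaling. Kank2, which binds talin at the rim of adhesions, had -0.28 (SE 0.11, adjusted p = 0.033) in the authors' deposited table, and its sign turned to 0.0068 under that scaling. Tln1, the widely expressed talin, had 0.28 (SE 0.15) and Kank1 0.22 (SE 0.12) in the authors' deposited table, with adjusted p-values of 0.13 and 0.16. Under total-count scaling both would be called higher, at 0.57 for Tln1 and 0.51 for Kank1. Tln1 made up 63.4% of the talins' level per kb in GFP and 73.3% in dnMKL1. The difference between paralogs was not tested, because the table holds no covariance between genes.

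In the complex of ILK, PINCH and parvin, Parva rose, Parvb and Lims1 fell, and Ilk and Lims2 were not called. Parva (alpha-parvin), which binds ILK and actin, went from 1295 to 2136 normalized counts, with 0.72 (SE 0.10) and an adjusted p-value of 4.9e-11 in the authors' deposited table. Parvb (beta-parvin), its muscle-enriched relative, went from 207 to 168 normalized counts, with -0.30 (SE 0.10, adjusted p = 0.012) in the authors' deposited table. Under total-count scaling Parvb stood at -0.013 and was not called. Parva made up 83.7% of the parvins' level per kb in GFP libraries and 91.3% in dnMKL1 libraries.

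Ilk, the integrin-linked pseudokinase at the centre of the complex, had implied means of 1402 and 1454 normalized counts. It had the smallest SE of the 39 members, 0.06, and a log2 fold change of 0.05 (adjusted p = 0.56) in the authors' deposited table. The interval of its fold ran from 0.957 to 1.12, and under total-count scaling it would be called higher at 0.34. Lims1 (PINCH1) had -0.23 (SE 0.09, adjusted p = 0.040) in the authors' deposited table, and its sign turned to 0.062 under that scaling. Lims2 (PINCH2) had -0.12 (SE 0.27, adjusted p = 0.79) in the authors' deposited table, and 0.17 under that scaling.

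The kinase and the scaffolds of the adhesion site all had positive log2 fold changes, and 2 of 4 passed, as did 34.1% of all genes tested. Pxn (paxillin), the scaffold that recruits focal adhesion kinase, went from 264 to 371 normalized counts. Bcar1 (p130Cas), a substrate of focal adhesion kinase and Src that is stretched under load, went from 562 to 762. The authors' deposited table gave 0.49 (SE 0.11) for Pxn and 0.44 (SE 0.10) for Bcar1, both with an adjusted p-value of 4.7e-05. Ptk2, focal adhesion kinase itself, had 0.15 (SE 0.10) and an adjusted p-value of 0.23 in the authors' deposited table. Tgfb1i1 (Hic-5), a paxillin relative induced by TGF-beta in other cells, had 0.47 (SE 0.22, adjusted p = 0.092) in the authors' deposited table. Under total-count scaling Ptk2 and Tgfb1i1 would also be called higher, at 0.44 and 0.76.

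Among the proteins that link adhesions to actin, Sorbs3, Tns3 and Sorbs2 rose, and Vcl and Tns1 were not called. Sorbs3 (vinexin), a vinculin-binding adaptor, rose the most among members whose base mean reached 100. Its implied mean went from 81.9 to 301 normalized counts, and the authors' deposited table gave 1.88 (SE 0.29) with an adjusted p-value of 3.3e-09. Sorbs2 (ArgBP2), its relative at the Z-disc of cardiomyocytes, went from 6529 to 10691 normalized counts, with 0.71 (SE 0.13, adjusted p = 4.3e-07) in the authors' deposited table. No other member moved by as many normalized counts. Tns3, a tensin that binds beta tails and actin, went from 140.4 to 282 normalized counts, with 1.01 (SE 0.18, adjusted p = 3.4e-07) in the authors' deposited table.

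Vcl (vinculin), which holds talin to actin, had implied means of 4217 and 3785 normalized counts. It was at -0.16 (SE 0.11, adjusted p = 0.30) in the authors' deposited table, with an interval from -0.37 to 0.060. Tns1, at 1075 normalized counts per kb the leading tensin here, had -0.20 (SE 0.09, adjusted p = 0.068) in the authors' deposited table. Under total-count scaling both turned positive without being called, to 0.13 for Vcl and 0.092 for Tns1.

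All 3 zyxin-family LIM proteins among the members were called, in different directions, where 34.1% of all genes tested were called. Lpp, Limd1 and Ajuba of the same family are not members and were counted with the other adhesion adaptors. All of these were called higher, at 0.67, 0.20 and 0.52 in the authors' deposited table. Zyx (zyxin), which moves between stressed actin bundles and the nucleus and recruits VASP, went from 1142 to 2089 normalized counts, with 0.87 (SE 0.12) and an adjusted p-value of 1.5e-11 in the authors' deposited table. Fblim1 (migfilin), a partner of filamin and kindlin-2, went from 6989.5 to 4878 normalized counts, with -0.52 (SE 0.09, adjusted p = 6.2e-07) in the authors' deposited table. Trip6 had -0.36 (SE 0.13, adjusted p = 0.023) in the authors' deposited table. Fblim1 was still called lower under total-count scaling, at -0.23, whereas Trip6 was not, at -0.071. Of the summed level per kb of the 3 members alone, Fblim1 made up 83.6% in GFP and 70.2% in dnMKL1, and Zyx 11.4% and 25.0%.

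Levels and changes were set against all genes of like level. The 15 members between 100 and 1000 in base mean had a median of 0.44 (log2), beside 0.0074 over the 6516 genes of that class. From 1000 to 10000 it was 0.087 for 16 members, beside -0.13 over 1988 genes. Above that, Itgb1 and Tns1 had a median of -0.11, beside -0.60 over 140 genes. Called members went both ways in the middle classes, with 6 higher and 4 lower from 100 to 1000, and 4 higher and 6 lower from 1000 to 10000. Of all genes tested in these classes, 39.3% and 54.5% were called. Across the 39 members, log2 fold change and log10 base mean had a Pearson r of -0.41, beside -0.22 over all 14056 genes tested, a description over genes that share the same libraries.

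**Figure D4:**
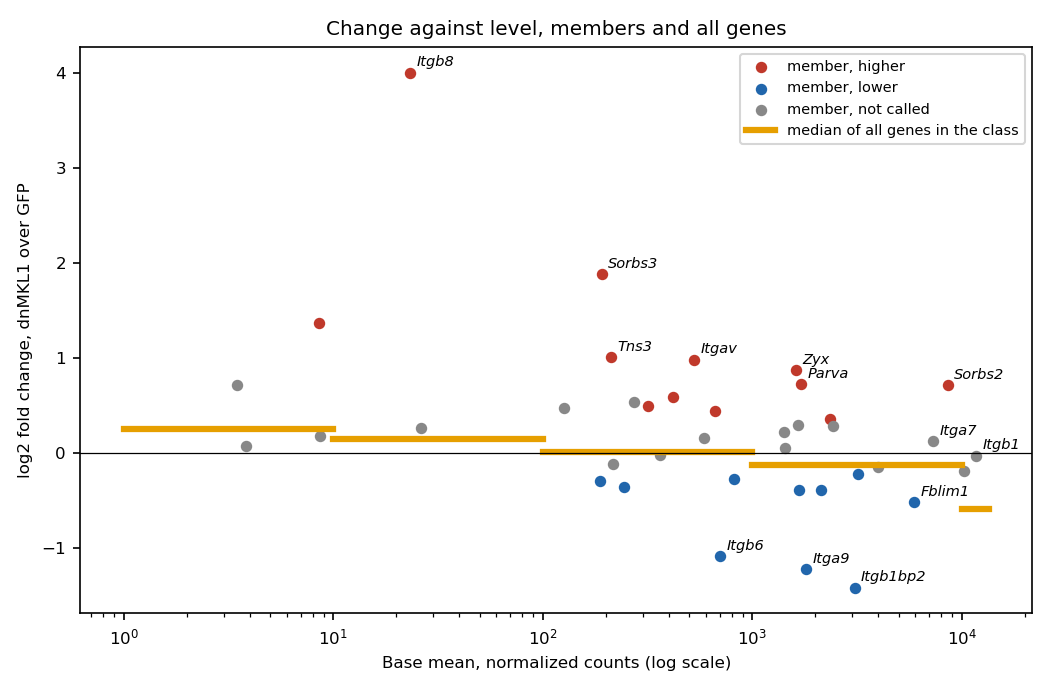
Log2 fold change of the 39 members against base mean (log axis), coloured by call, with the median of all genes in each class of base mean as orange bars. The bars fall from 0.25 at base means of 1 to 10 to -0.60 at 10000 and above; Itgb1 (-0.03) sits above the bar of its class.

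Other genes of the pathway were counted in 4 lists, chosen by role with earlier results of these data known. Of all genes tested 16.6% were higher and 17.4% lower, or 40.4% and 6.60% under total-count scaling. Of 22 integrin ligands, 20 were tested, with 9 higher, 2 lower and a median of 0.26, or 12 higher and 1 lower under total-count scaling. The authors' deposited table lists 0.58 (SE 0.10) for Lamb1 and 0.66 (SE 0.13) for Lama4, laminin chains of vascular and muscle basement membranes. It gave -1.06 (SE 0.14) for Lamb3, a chain of epithelial laminin, and -0.37 (SE 0.09) for Col4a2. The last of these was not called under total-count scaling.

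Of 37 other adhesion adaptors, 34 were tested, with 12 higher, 4 lower and a median of 0.14, or 18 higher and 1 lower under total-count scaling. Those with the smallest p-values were Csrp1, a LIM protein of smooth muscle, and Actn1, a non-muscle alpha-actinin, at 1.50 (SE 0.16) and 1.02 (SE 0.13) in the authors' deposited table. On the lower side, the authors' deposited table gave -0.86 (SE 0.13) for Pdlim7 and -0.38 (SE 0.08) for Ldb3, PDZ-LIM proteins of the Z-disc, and the latter was not called under total-count scaling. Of 26 adhesion signalling genes, 25 were tested, with 8 higher, 1 lower and a median of 0.20, or 17 higher and 0 lower under total-count scaling. Ptk2b (Pyk2), the relative of focal adhesion kinase, went from 114 to 782 normalized counts, with 2.77 (SE 0.25, adjusted p = 1.2e-26) in the authors' deposited table. Ptk2 itself was not called. Pak2, a kinase downstream of Rac and Cdc42, had 0.57 (SE 0.09) in the authors' deposited table, and Arhgap26, which binds focal adhesion kinase, -0.32 (SE 0.09), the latter not called under total-count scaling. Of the 10 other integrin subunits, mostly of leukocytes, 8 were tested: Itga10 was higher at 1.72 (SE 0.55) and Itgal lower at -1.13 (SE 0.30) in the authors' deposited table.

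Markers of the sorted cells and of other heart cells were counted beside these results. The 8 cardiomyocyte markers were present, led by Myh6, and all lay below 0 on the log2 scale, between -0.87 and -0.20. Of these 5 were called lower. Under total-count scaling 3 were, and Pln and Myl2 turned to 0.083 and 0.087, neither called. Of 12 fibroblast markers 5 were higher and 0 lower, or 8 higher and 0 lower under total-count scaling. Their summed group means were 5228 normalized counts in GFP and 8877 in dnMKL1, with Col3a1 and Gsn the most abundant. Fbln1 (748 in GFP and 1944 in dnMKL1) and Gsn (876 and 1951) added the most to that difference. The 7 not called under the authors' scaling were Pdgfra, Dcn, Lum, Postn, Tcf21, Dpt and Mfap5. Of 12 endothelial markers 0 were called and 0 had an unadjusted p-value under 0.05 (sums 4373 and 4445, led by Kdr and Fabp4). Of 9 mural markers 2 were higher and 1 lower (sums 18214 and 15883, led by Acta2 and Abcc9). The lower gene was Acta2, at 10454 and 4999 normalized counts, which sets the direction of that sum. The higher genes were Cspg4 (501 in GFP and 2019 in dnMKL1) and Myh11 (99.2 and 164). Acta2 and Abcc9 held most of the sum, and whether it follows mural cells was not tested. The list's median log2 fold change was 0.30, and under total-count scaling 5 were higher and 1 lower. Of the 10 macrophage markers tested 1 was higher and 0 lower, or 1 lower (Lyz2) at an unadjusted p-value under 0.05 (sums 184 and 163, led by Lyz2 and Csf1r). None of these markers was listed at 0. Itga5, Itgav, Tns3 and Itgb1 are also expressed by fibroblasts and vascular cells, and the part of such cells in the members' changes was not tested. In such bulk samples fewer cells of a type and less RNA per cell cannot be told apart.

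The authors' counting does not state whether strand was used, and 12 of the 39 members share exon bases with another gene in GENCODE's annotation. Among the called members these are Itgb4, Sorbs2, Sorbs3 and Zyx, each overlapped by a gene on the opposite strand. If strand was not used, the overlapping gene could have raised or lowered their counts.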

How the data were processed

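RNA was sequenced from 10 libraries, 5 per group. Per the labels' protocols, 10 ng of RNA entered SMART-Seq reverse transcription with 8 PCR cycles, and 500 pg of cDNA a Nextera XT preparation. The submitters' processing notes name CASAVA 1.8, STAR 2.5.3a, featureCounts from Subread 1.5.2 and build mm10. The deposited base mean holds a signal, the library mean of counts scaled by the authors. The deposited fold change and SE are on the log2 scale, and the deposited Wald statistic is a score, the fold change divided by its SE. The deposited p-values are two-sided, adjusted by Benjamini-Hochberg over 14056 genes.

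The members and lists were chosen with earlier results of these data known. Every member could be named. Of other lists, these were the 2 genes with the smallest p-value in each direction, or for markers the 2 with the largest base mean. Further list genes were named where they bear on a family or a sum. Group means were implied from base mean and fold change, taking groups of equal size. The 95% intervals are normal intervals from the SE. Exon lengths are unions over GENCODE M21 basic transcripts (GRCm38), which may differ from the authors' annotation; 3 list genes were found under older symbols in RefSeq's table.

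Where a gene has 1 read in all, the inverse of its base mean is 10 times the size factor of the library holding that read; 10 such values recurred, and the sign of the fold change gave the group. For Itga2, Itga4, Itgb3, Itgb4 and Itgb8, all whole-number read sets matching the base mean were listed. For each set the dispersion of a negative binomial fit was chosen to give the deposited SE. The set kept was that whose fit then gave the deposited fold change. Its gap was at most 1.1e-06 on the log2 scale, where any other set missed by 2.6e-04 or more. Itga4 had the most sets to choose from, 14933. The steps were tested on simulated data. Reads carry no molecular identifiers. Calculations used Python 3.11.15, numpy 2.4.6, pandas 2.3.3 and scipy 1.17.1.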

Additional observations from a re-analysis of the deposited data

How the results depend on the processing

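No paired analysis was possible because the deposited comparison holds no values by replicate number, and for most genes no library could be left out for the same reason, so whether 1 library decides those values is unknown. The 22 called members became 13 (9 higher, 4 lower) with a minimum absolute log2 fold change of 0.5 and 7 (4 higher, 3 lower) with 1, since fewer genes can pass. Over all genes these minimums left 2735 (1489 higher, 1246 lower) and 942 (654 higher, 288 lower). At an adjusted p-value under 0.01, 16 members were called (11 higher, 5 lower), beside 3549 of all genes (1666 higher, 1883 lower). In the 4 pathway lists together, 30 of 87 genes tested were higher and 8 lower. The minimums left 26 (23 higher, 3 lower) at 0.5, and 10 (8 higher, 2 lower) at 1. Total-count scaling gave 21 higher and 4 lower members, 5685 higher and 927 lower genes, and 48 higher and 3 lower pathway genes, and moved the members' median to 0.47, by the shift itself. It turned the sign of 7 members: Tns1 to 0.092, Lims1 to 0.062, Itga1 to 0.26, Vcl to 0.13, Lims2 to 0.17, Itgb1 to 0.26 and Kank2 to 0.0068. It ended 6 calls (Fermt2, Parvb, Trip6, Tln2, Lims1 and Kank2) and added 9 (Itga6, Itga7, Itgb1, Itgb5, Tln1, Kank1, Ilk, Ptk2 and Tgfb1i1). Which scaling is closer to RNA per cell was not tested. All 39 members kept their call with median-centring and with adjustment over every p-value. For the 5 integrins with recovered reads, leaving out each library (chosen after seeing the data) gave log2 ratios from 3.57 to 4.30 for Itgb8, 1.18 to 1.51 for Itgb4, 0.058 to 0.37 for Itgb3, 0.37 to 1.04 for Itga2 and -0.56 to 0.16 for Itga4.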
